A study of Drosophila melanogaster with 23 samples.

Results

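The genes described here encode the subunits of the Drosophila proteasome. They are the 48 of 17659 genes in the deposited count table whose FlyBase symbol begins with Prosalpha, Prosbeta, Rpn or Rpt followed by a number, and 17464 of all the identifiers had a symbol in the annotation used. Of the members, 32 are canonical subunit genes: 7 alpha and 7 beta subunits of the 20S core, and 12 non-ATPase (Rpn) and 6 ATPase (Rpt) subunits of the 19S cap. The other 16 carry a T or an R after the number and are copies of a canonical gene, several of which are known for use in the testis: 5 of alpha, 6 of beta, 2 of Rpn and 3 of Rpt subunits. They are told apart from the canonical genes throughout.

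The proteasome degrades proteins that carry ubiquitin. Its barrel-shaped core is made of rings of alpha subunits, which form a gate, around rings of beta subunits, some of which cut peptides, and the cap recognises ubiquitin, removes it, and uses a ring of ATPases to unfold and thread the substrate. The canonical genes are expressed in nearly every cell of the fly, while many T and R copies serve the male germ line.

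The study measured nascent RNA (neuRNA-seq) in Kc167 (Kc) cells, a female line of embryonic origin labelled as dorsal closure stage. All cells were transfected and later given 5-ethynyl uridine (EU; 0.2 mM over 1 h), so that RNA made in that time could be coupled to biotin and captured. The 23 libraries come from 3 experiments, each with mock libraries that received no RNA. Experiment 1 has 3 libraries each of mock, of AGO2 KD, made with an siRNA, and of LaminB KD, made with a dsRNA. Experiment 2 has 2 libraries each of mock, of si5UTR, in which an siRNA was aimed at the 5′UTR of AGO2, of si5UTR+AGO2, where a tagged wildtype AGO2 construct was transfected with that siRNA, and of si5UTR+V966M, where the construct carried the mutation that removes AGO2 catalysis. Experiment 3 has 3 libraries each of mock and of Dcr-2 KD, made with a dsRNA. The series design calls the libraries of a group biological replicates, and every group comes from the same cell line, so results hold for this line alone.

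Libraries held 8330072 to 13541570 counted reads in experiment 1, between 10061474 and 15641835 in experiment 2, and between 5215481 and 8048344 in experiment 3. AGO2, the RNA interference effector targeted in experiments 1 and 2, was at 301, 323 and 308 CPM (a gene's reads relative to the normalised library size) in the mock libraries of experiment 1 and at 238, 218 and 217 CPM in AGO2 KD, and at 282 and 321 CPM in mock and 159 and 161 CPM in si5UTR of experiment 2. Lam, which encodes LaminB, was at 356, 348 and 349 CPM in mock and 101, 131 and 109 CPM in LaminB KD, and Dcr-2 was at 240, 226 and 241 CPM in mock and 173, 187 and 128 CPM in Dcr-2 KD. Each targeted gene was therefore lower in every knockdown library than in its mock libraries. In LaminB KD, AGO2 was at 371, 421 and 385 CPM, above mock. Dcr-2 was at 207, 215 and 217 CPM there, beside 147, 159 and 168 CPM in the mock libraries of experiment 1. These 2 genes were called higher, as were 16.7% of all genes tested. Haemocyte genes, which mark the lineage Kc cells resemble, summed to 3860 to 5662 CPM over 8 genes in the 23 libraries. Most of these reads were of srp (464118), Hml (399503) and Pxn (202175). Over all libraries crq had 8122 reads, He 1605, eater 1189, Sr-CI 183 and NimC1 25, so the sum does not speak for every marker listed.

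In mock cells of experiment 1, the canonical genes spanned a range of levels once gene length was taken into account. Levels per kb of gene span (CPM per kb, the gene running from its annotated start to its end, introns included) had a median of 57.2 over the 30 canonical genes that passed the filter on low counts, and the highest level was 8.87 times the lowest. Among non-ATPase subunits, Rpn5, a lid subunit, had the highest level at 130 CPM per kb, followed by the lid subunit Rpn3 at 87.7, and by Rpn2 at 84.9 and Rpn1 at 76.3, the large scaffold subunits at the base of the cap. The lowest canonical level was that of Rpn8, the partner of the deubiquitinase Rpn11, at 14.6 CPM per kb over a span of 4500 bp. Rpn8 was thus lowest per length although its 71.5, 67.4 and 58.6 CPM in mock were not the fewest reads of a canonical gene.

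The classes overlapped in level. Per kb, the median was 61.4 CPM for the 12 non-ATPase genes, 59.1 for 6 alpha genes, 51.1 for the 7 beta genes and 49.3 for 5 ATPase genes. Prosbeta4 led the core at 99.2 CPM per kb, ahead of Prosalpha6 at 75.1 and Prosbeta5, the subunit with chymotrypsin-like activity, at 68.8. The beta subunits with caspase-like and trypsin-like activity, Prosbeta1 and Prosbeta2, lay close together at 51.1 and 50.4 CPM per kb. The coefficient of variation over the 3 mock libraries of experiment 1 had a median of 7.01% per gene, so that neighbours in the order that differ by a few percent were not told apart. The order was much the same in the mock cells of the other experiments: across the 30 genes, which are not independent replicates, Spearman's rho was 0.938 between experiments 1 and 2, 0.943 between 1 and 3, and 0.947 between 2 and 3.

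The remaining canonical genes could not be measured. Rpt1, an ATPase subunit at chr2R:7652440-7653954 on the minus strand (dm6), had 0 reads in all 23 libraries, and 100% of its span is shared on that strand with CG17985. Prosalpha1 had 36 reads in total. All of its 50-base windows occur elsewhere in the genome, and Prosalpha1R encodes an identical protein, so that a read from either could come from both. Transcription of Rpt1 and Prosalpha1 can therefore not be read from their counts, and neither entered a test. Apart from Prosalpha1 and Prosalpha1R, no member had a 50-base window that is repeated in the genome.

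Among the copies, 4 had 0 reads (Prosalpha4T1, Prosbeta5R1, Rpn12R and Rpn13R), where a count of 0 allows up to 3 reads. Rpn12R and Rpn13R lie wholly within other genes on the same strand, Sytbeta for the former and CG15465 and rg for the latter, so their reads may have been lost to these. A further 7 had few reads over all libraries: Prosbeta5R2 had 42, Prosalpha4T2 24, Prosalpha3T 13, Prosalpha6T 3, Prosbeta2R1 3, Prosalpha1R 2 and Rpt4R 1. The 13 reads of Prosalpha3T were all in 1 library, si5UTR+AGO2 replicate 2. Prosbeta4R1 and Prosbeta4R2 had 118 and 115 reads. Of the copies, only Rpt3R with 3224 reads, Rpt6R with 1746 and Prosbeta2R2 with 1149 had reads in every library and were tested in each experiment.

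The 3 tested copies resemble their canonical genes to different degrees, which bears on whether 50-base reads can be told apart. Rpt3R and Rpt6R encode proteins 81.7% and 88.7% identical to the ATPases Rpt3 and Rpt6, and Prosbeta2R2 is 45.3% identical to Prosbeta2. The most alike stretches of 30 coding bases are shown for the first 2 pairs, with the bases that differ in capitals. They lie in single exons at chrX:11126066-11126095 (plus strand) for Rpt3, chr3R:9755489-9755518 (minus) for Rpt3R, chrX:21317037-21317066 (plus) for Rpt6 and chr3R:30582803-30582832 (minus) for Rpt6R, in dm6.
Rpt3: accatgTtggccaaggcggtggcccatcat
Rpt3R: accatgCtggccaaggcggtggcccatcat
Rpt6: ctggtCcagaaattcatcggcgagggttcg
Rpt6R: ctggtTcagaaattcatcggcgagggttcg
Both pairs differ by 1 base in this stretch, whereas the most alike stretch of Prosbeta2 and Prosbeta2R2 has 8 mismatches. No whole 50-base window was shared in any of these pairs, but a read with a sequencing error could still be given to the wrong copy, so the values of Rpt3R and Rpt6R are uncertain.
Rpt3R was at 11.1, 11.7 and 10.6 CPM in the mock libraries of experiment 1 and Rpt6R was at 9.72, 11.8 and 12.4 CPM.

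The promoters of the canonical genes were searched for 4 motifs on both strands, from 250 bases before to 50 bases after the annotated start. The DNA replication-related element (DRE, TATCGATA), the binding site of the factor DREF, was found in 12 of 32 canonical promoters (37.5%), against 9.36% of 13968 promoters of protein-coding genes. It was found in none of the 16 copies. The core of the antioxidant response element (TGACNNNGC), known from the sites of cnc, a regulator of proteasome genes, was found in 5 canonical promoters (15.6%) against 8.62% of all. TATAAA was found in 13 (40.6%) against 45.8%, and the E-box CACGTG in 0 against 4.20%. The genes with a DRE were Prosalpha3, Prosalpha5, Prosalpha6, Prosbeta1, Prosbeta2, Prosbeta6, Rpn3, Rpn7, Rpn9, Rpn12, Rpn13 and Rpt5. A match is a run of letters and not a tested site.

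The DRE and its surroundings are shown for a gene of each kind described below, in the direction of transcription and with the motif in capitals. The windows lie at chr3L:14999930-14999959 (plus strand) for Prosbeta2, chr3L:16610444-16610473 (minus) for Prosbeta6, chr3R:23752819-23752848 (plus) for Rpt5 and chr2L:10221324-10221353 (plus) for Prosalpha6, in dm6.
Prosbeta2: ccatgaatataTATCGATAcaatatcgatt
Prosbeta6: gtatgtataccTATCGATAacgtttaagca
Rpt5: atcgctgtcacTATCGATAagcgccggcga
Prosalpha6: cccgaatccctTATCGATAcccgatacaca
The motif begins at -10, -44, -46 and -16 bases from the annotated start in Prosbeta2, Prosbeta6, Rpt5 and Prosalpha6.

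Knockdown of LaminB, the lamin of the inner face of the nucleus, was compared with mock to ask how nascent transcription changed when it was depleted. The canonical proteasome genes were lower as a group: 19 of the 30 tested (63.3%) fell at an adjusted p under 0.1 in edgeR's quasi-likelihood test and none rose, whereas 12.5% of the 8142 genes tested fell. All 30 log2 fold changes were below 0, from -0.09 to -0.74 with a median of -0.32 (a median change of -20.1%), beside a median of -0.005 over all genes. In 22 of the 30 genes the 3 LaminB KD libraries were all below the 3 mock libraries. How many of all genes tested were separated in this way was not counted, so this number has no background beside it. Summed over the canonical genes, the level was 2994 ± 97.6 CPM in mock (SD, n = 3; range 2901 to 3096) and 2439 ± 83.5 CPM in LaminB KD (n = 3; range 2350 to 2516), so these libraries did not overlap. In such bulk samples, fewer cells that transcribe a gene and less RNA made per cell cannot be told apart.

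**Figure D1:**
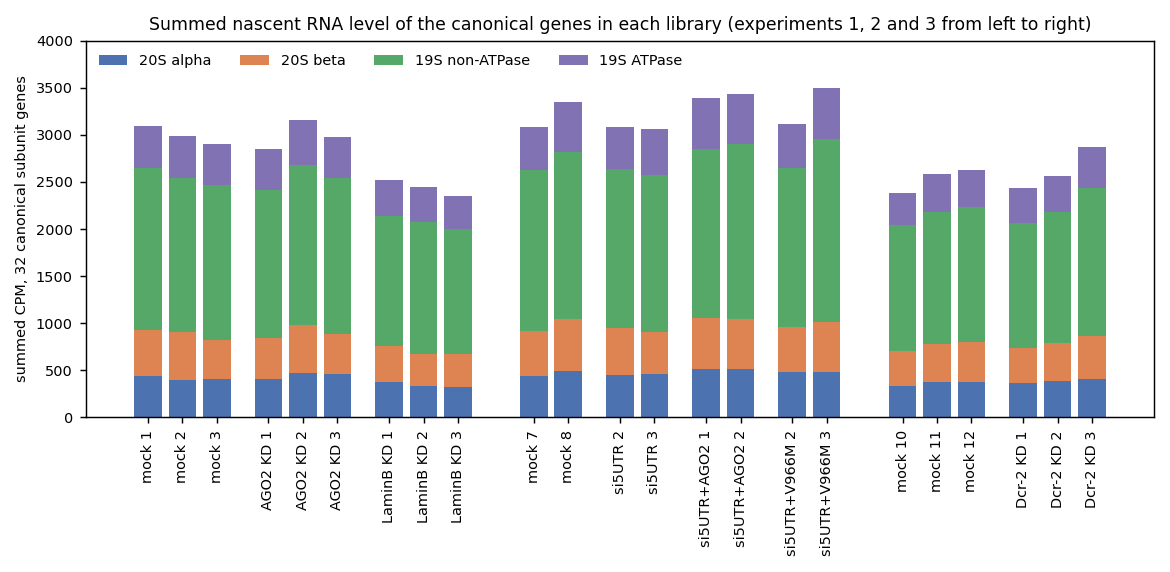
Summed level of the 32 canonical subunit genes in each of the 23 libraries, in CPM, experiments from left to right. The LaminB KD libraries, at 2350 to 2516 CPM, lie below all other libraries of experiment 1, which range from 2849 to 3160.

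The decrease reached all 4 classes. Of the alpha genes 2 of 6 fell, of the beta genes 5 of 7, of the non-ATPase genes 9 of 12 and of the ATPase genes 3 of 5. Mean summed levels in mock and LaminB KD were 415 and 344 CPM for alpha, 469 and 356 CPM for beta, 1668 and 1374 CPM for non-ATPase and 442 and 366 CPM for ATPase genes.

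In the core, the largest difference was that of Prosbeta2 (chr3L:14999951-15001319), the trypsin-like subunit. It was at 71.1, 70.3 and 65.6 CPM in mock and at 35.3, 38.7 and 49.7 CPM in LaminB KD. All knockdown libraries were below all mock libraries, and the log2 fold change was -0.74 ± 0.13 (± the SE here and below, edgeR adjusted p = 0.000677). Prosbeta1, the caspase-like subunit, was at 51.2, 53.8 and 45.7 CPM in mock and 37.1, 33.9 and 34.1 CPM in LaminB KD, again without overlap (log2 fold change -0.52 ± 0.12, edgeR adjusted p = 0.00701). Prosbeta5, the chymotrypsin-like subunit, did not pass the test: its 95.9, 90.2 and 61.8 CPM in mock overlapped with 64.8, 74.1 and 68.9 CPM in LaminB KD (log2 fold change -0.26).

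Of the structural beta subunits, Prosbeta6 was at 45.6, 49.1 and 38.3 CPM in mock and 40.7, 28.8 and 28.7 CPM in LaminB KD (log2 fold change -0.44 ± 0.16, edgeR adjusted p = 0.0576). Its replicate 1 of LaminB KD lay within the mock range, and leaving out a library ended the call in 4 of 6 fits. Prosbeta3 and Prosbeta4 fell with log2 fold changes of -0.38 and -0.30, and Prosbeta7 did not pass the test at -0.33. In the alpha ring, Prosalpha4 was at 66.9, 57.1 and 71.0 CPM in mock and 51.7, 48.4 and 40.1 CPM in LaminB KD (log2 fold change -0.48 ± 0.12, edgeR adjusted p = 0.0122), and Prosalpha2 was at 74.8, 80.0 and 72.1 CPM in mock and 65.6, 53.3 and 52.2 CPM in LaminB KD (-0.41). Neither overlapped between the groups. Prosalpha3, Prosalpha5, Prosalpha6 and Prosalpha7 did not pass, with log2 fold changes of -0.19, -0.32, -0.09 and -0.24. Prosalpha6 differed least, at 92.0, 85.7 and 91.9 CPM in mock and 85.6, 80.2 and 87.3 CPM in LaminB KD.

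In the cap, Rpn9 and Rpn8, both of the lid, showed the largest differences. Rpn9 (chr3R:23731375-23733462) was at 93.8, 105 and 93.2 CPM in mock and at 70.8, 64.0 and 50.2 CPM in LaminB KD (log2 fold change -0.66 ± 0.12, edgeR adjusted p = 0.000935). Rpn8 was at 71.5, 67.4 and 58.6 CPM in mock and 35.1, 44.9 and 53.1 CPM in LaminB KD (log2 fold change -0.57 ± 0.14, edgeR adjusted p = 0.00905). In both genes each LaminB KD library was below each mock library. Rpn11, the deubiquitinase that pairs with Rpn8, fell with a log2 fold change of -0.41, but LaminB KD replicate 1 at 52.5 CPM lay among its 53.9, 49.5 and 61.3 CPM in mock. Leaving out a library ended this call in 4 of 6 fits.

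The ubiquitin receptor Rpn10 fell from 110, 92.7 and 96.9 CPM in mock to 69.6, 84.8 and 70.3 CPM in LaminB KD (log2 fold change -0.42), whereas Rpn13, the other receptor, did not pass at -0.21. The lid genes Rpn7 at -0.38, Rpn12 at -0.36, Rpn3 at -0.27 and Rpn5 at -0.22 fell, as did the scaffold gene Rpn1 at -0.26. Rpn2 at -0.15 and Rpn6 at -0.19 did not pass. Of the ATPase ring, Rpt5 fell from 80.1, 93.1 and 85.3 CPM to 58.6, 67.0 and 70.3 CPM (log2 fold change -0.40, edgeR adjusted p = 0.00861), Rpt2 and Rpt3 fell at -0.33 and -0.29, and Rpt6 and Rpt4 did not pass at -0.26 and -0.09. Rpt4, the ATPase that differed least, was at 84.0, 83.6 and 79.4 CPM in mock and 81.0, 83.5 and 67.7 CPM in LaminB KD. The genes with a DRE in the promoter (8 of 12 fell, median -0.37) and those without (11 of 18 fell, median -0.29) differed little in these counts, and the difference was not tested.

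**Figure D2:**
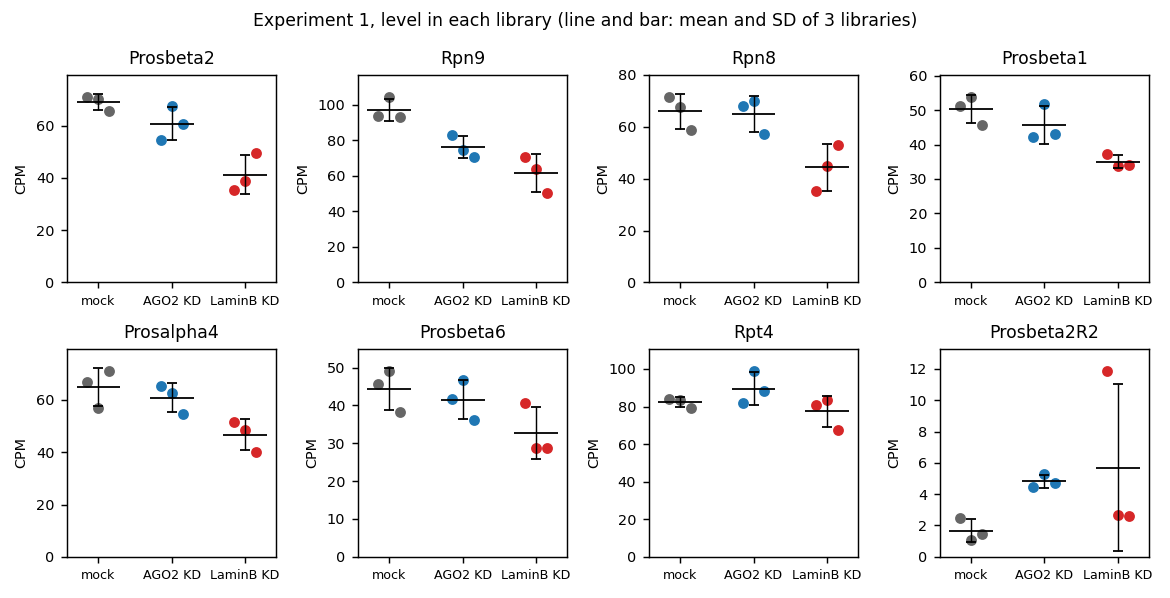
Level of 8 proteasome genes in each library of experiment 1, in CPM; points are libraries, lines and bars the mean and SD of 3 libraries, and each panel has its own axis from 0. For Prosbeta2, Rpn9, Rpn8, Prosbeta1 and Prosalpha4 every LaminB KD point is below every mock point, Prosbeta6 and Rpt4 overlap, and Prosbeta2R2 has 1 LaminB KD library at 11.9 CPM above all others.

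Of the copies, Prosbeta2R2 was the only one called in edgeR with the filter on low counts, and it rose, as did 16.7% of all genes tested. It was at 2.49, 1.06 and 1.43 CPM in mock and at 11.9, 2.66 and 2.58 CPM in LaminB KD (log2 fold change 1.75 ± 0.57, edgeR adjusted p = 0.0382). Replicate 1 stood far above the other LaminB KD libraries, and without it the log2 fold change was 0.63 with an edgeR adjusted p of 0.389. Rpt3R and Rpt6R did not pass, with log2 fold changes of -0.12 and -0.35. Prosbeta4R2, which was below the filter on low counts, was at 0.0754, 0 and 0.204 CPM in mock and at 2.68, 0.363 and 0.560 CPM in LaminB KD, values that rest on few reads. It was called higher with DESeq2 (log2 fold change 3.71, DESeq2 adjusted p = 0.0352) and without the filter (3.52, edgeR adjusted p = 0.0769). Some fits without a single library also called it, and the fit without LaminB KD replicate 3 called Prosbeta4R1.

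Gene length moved with this comparison. Over all genes, the median log2 fold change in LaminB KD against mock was -0.14 for those of 1000 to 2000 bp and 0.27 for those longer than 10000 bp, and 15.9% and 2.52% of these fell. The canonical genes are short, from 914 to 4500 bp, and 4 lay in the band below 1000 bp, 20 in that of 1000 to 2000 bp and 6 in that of 2000 to 5000 bp, of which 4, 11 and 4 fell. Among the 1663 genes of the same span and level, these members included, 28% fell and the median was -0.15. With a correction of each library for gene length, 10.8% of all genes tested and 7 of the 30 canonical genes fell, namely Prosbeta2, Rpn9, Rpn8, Prosbeta1, Prosalpha4, Rpt5 and Rpn1, and the median over the 33 tested members was -0.18. With a further correction for GC content, chosen after seeing the data, 3 of the 30 fell, near the background of 11% of all genes: Prosbeta2 at -0.57, Rpn9 at -0.55 and Rpn8 at -0.51. How far the length relation is technical was not tested.

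**Figure D3:**
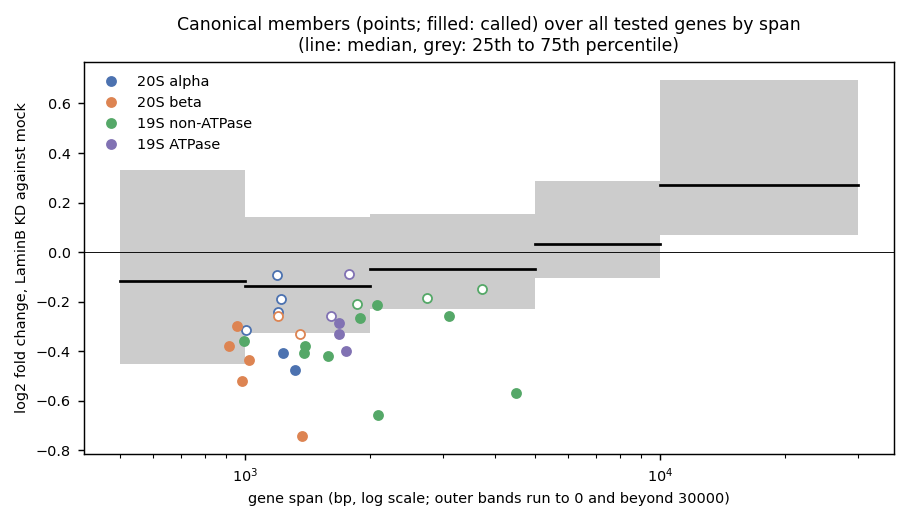
Log2 fold change in LaminB KD against mock of the canonical genes (points; filled where called) over the median and the 25th to 75th percentile of all tested genes in bands of gene span, on a log axis in bp. The median of all genes is -0.14 at 1000 to 2000 bp and 0.27 beyond 10000 bp, and most canonical genes lie below the median of their band.

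The count also changed when single libraries were left out: 11 members fell without mock replicate 1 and 22 at most, without LaminB KD replicate 1. Leaving out a library changes the calls of other genes too, and the share of all genes in these fits is not given. The summed level of 4 neuron marker genes was 131 to 137 CPM in mock and 279 to 287 CPM in LaminB KD. Of these, brp made up 61.3, 67.4 and 64.6 CPM in mock and 196, 198 and 187 CPM in LaminB KD. The marker elav was at 68.7, 69.9 and 66.1 CPM in mock and 78.2, 86.5 and 91.6 CPM in LaminB KD. Syt1 and nSyb were at 4.81 CPM or less in these libraries. All 3 neuron markers tested rose, beside 16.7% of all genes tested. Their part in the result was not tested.

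Knockdown of AGO2 addressed whether AGO2 depletion changed transcription, and here the proteasome genes were nearly level. The summed canonical level was 2996 ± 156 CPM in AGO2 KD (SD, n = 3; range 2849 to 3160) beside 2994 ± 97.6 CPM in mock, and the ranges overlapped. In edgeR's test 1 of the 33 tested members was called, against 10.2% of all genes. Rpn9 was at 83.2, 74.5 and 70.9 CPM in AGO2 KD, below its 93.8, 105 and 93.2 CPM in mock (log2 fold change -0.35 ± 0.12, edgeR adjusted p = 0.0835), and leaving out a library ended the call in 5 of 6 fits. The canonical log2 fold changes ran from -0.35 to 0.24 with a median of -0.02, 13 above and 17 below 0. Prosbeta2R2 was at 4.44, 5.29 and 4.74 CPM, above all 3 mock libraries, but did not pass (log2 fold change 1.51, edgeR adjusted p = 0.136).

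**Figure D4:**
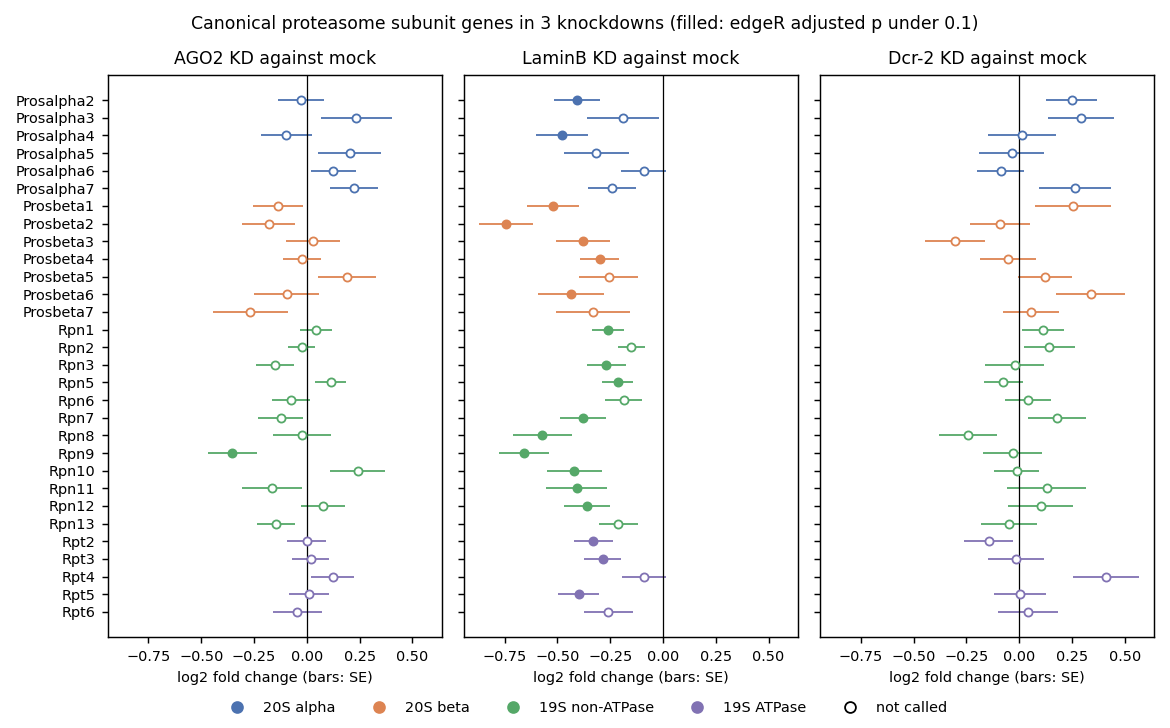
Log2 fold change (points) with its SE (bars) of the canonical subunit genes in AGO2 KD, LaminB KD and Dcr-2 KD, each against the mock libraries of its own experiment; filled points have an edgeR adjusted p under 0.1. All 30 lie below 0 in LaminB KD, from -0.09 to -0.74, while they lie on both sides of 0 in the others.

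LaminB KD and AGO2 KD share their mock libraries, so their effects against mock are not independent, and the knockdowns were also compared with each other. There 17 members, all canonical, were lower in LaminB KD and none higher, against 10.1% of all genes lower. All 30 canonical log2 fold changes were negative, from -0.06 to -0.66, with a median of -0.33. The ubiquitin receptor Rpn10 differed most: it was at 94.8, 116 and 143 CPM in AGO2 KD and 69.6, 84.8 and 70.3 CPM in LaminB KD (log2 fold change -0.66 ± 0.13, edgeR adjusted p = 0.00339). No Rpn10 library of one group reached those of the other.

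Prosbeta2 at -0.56 and Rpn8 at -0.55, among the most changed against mock, were also among the largest here (edgeR adjusted p = 0.00829 and 0.0161). Both comparisons use the same LaminB KD libraries, so this is not an independent second observation. Some alpha and beta genes that did not pass against mock did so here: Prosalpha5 was at 49.3, 74.8 and 81.6 CPM in AGO2 KD and 45.4, 49.3 and 49.3 CPM in LaminB KD (log2 fold change -0.52, edgeR adjusted p = 0.0330), Prosalpha7 was at -0.47 (edgeR adjusted p = 0.0124) and Prosbeta5 at -0.45 (edgeR adjusted p = 0.0400). The groups of Prosalpha5 touched at 49.3 CPM. The count was 8 without AGO2 KD replicate 2 and 11 without LaminB KD replicate 3, fits for which the share of all genes is not given. It was 11 with the correction for gene length, under which 10.6% of all genes fell.

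Other genes of the pathway were taken from a list of 19, of which 18 were found and tested. In LaminB KD against mock, 3 of these fell and 1 rose, beside 12.5% and 16.7% of all genes tested, with a median log2 fold change of -0.09. Pomp, the chaperone that helps assemble the core, was at 128, 128 and 107 CPM in mock and 80.2, 87.1 and 87.1 CPM in LaminB KD (log2 fold change -0.51 ± 0.10, edgeR adjusted p = 0.00173). It did not overlap between these groups. Ubqn, a shuttle for ubiquitinated proteins, and Uba1, the ubiquitin-activating enzyme, fell by 0.22 and 0.18 on the log2 scale, and Npl4, a cofactor of the segregase that extracts substrates, rose by 0.20. In AGO2 KD against mock, 1 of the 18 rose, beside 7.92% of all genes tested: Sem1, the smallest subunit of the lid, was at 40.8, 39.1 and 27.1 CPM in mock and at 44.3, 49.6 and 77.8 CPM in AGO2 KD (log2 fold change 0.69 ± 0.20, edgeR adjusted p = 0.0422). In LaminB KD, Sem1 was at 33.8, 26.7 and 26.9 CPM, which overlapped with mock.

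In experiment 2, depletion of AGO2 with the siRNA against its 5′UTR was compared with mock and with the rescue by the wildtype or the catalytic mutant construct. The summed canonical level was 3216 ± 185 CPM in mock, 3073 ± 18.0 in si5UTR, 3413 ± 35.3 in si5UTR+AGO2 and 3308 ± 274 CPM in si5UTR+V966M (SD, n = 2 each). The si5UTR libraries had the lowest mean, but at 3060 and 3086 CPM their range reached that of mock, from 3085 to 3346 CPM. Against mock, edgeR called 0 of 33 members in si5UTR (1.23% of all genes), in si5UTR+AGO2 (0.149%) and in si5UTR+V966M (0.63%). An unadjusted edgeR p under 0.05 was found for 0, 2 and 2 members, beside 741, 394 and 815 of the 8727 genes tested. DESeq2 called 0 in each, but gave an adjusted p to only 30, 3 and 11 members and could not call the rest. The canonical median log2 fold changes were -0.11, 0.12 and 0.06.

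The members with the smallest p in si5UTR were Rpt3R at 0.54, Rpn8 at -0.32 and Rpn3 at -0.29 on the log2 scale. Rpn3, a lid subunit, was at 171 and 125 CPM in mock and 141 and 101 CPM in si5UTR, which overlapped. In si5UTR+AGO2 they were Rpt6 at 0.41, Rpn8 at -0.39 and Rpn11 at -0.34. The ATPase gene Rpt6 was at 55.1 and 71.4 CPM in mock, 71.9 and 80.3 CPM in si5UTR, 84.3 and 84.4 CPM in si5UTR+AGO2 and 78.1 and 97.5 CPM in si5UTR+V966M. All libraries that received the siRNA were thus above both mock libraries. In si5UTR+V966M they were Rpt6 at 0.47, Prosbeta2R2 at 1.46 and Rpt6R at 1.35. Prosbeta2R2 was at 4.48 and 2.99 CPM in mock and at 14.0 and 6.58 CPM in si5UTR+V966M, where replicate 2 held 201 of its 1149 reads.

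Among the transfected groups, edgeR called 0 members in si5UTR+AGO2 against si5UTR (0.63% of all genes) and 0 in si5UTR+V966M against si5UTR (0.264%). It also called 0 in si5UTR+V966M against si5UTR+AGO2 (0.16%). In this order, 4, 2 and 2 members had an unadjusted edgeR p under 0.05, beside 559, 744 and 771 of the 8727 genes tested. DESeq2 called 0, 1 and 0, among only 30, 4 and 3 members to which it gave an adjusted p. The 1 was Rpn3, at 154 and 203 CPM in si5UTR+V966M beside 141 and 101 CPM in si5UTR (log2 fold change 0.56 in edgeR and in DESeq2, with a DESeq2 adjusted p of 0.0710). Both rescue groups were above si5UTR for this gene: it was at 161 and 172 CPM in si5UTR+AGO2, with an edgeR log2 fold change of 0.46. Prosbeta3 was at 79.7 and 84.8 CPM in si5UTR+AGO2, above its 59.3 and 55.3 CPM in si5UTR (log2 fold change 0.52) and its 47.0 and 61.5 CPM in si5UTR+V966M (-0.60).

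The other members of smallest p were Prosbeta6 at 0.48 in si5UTR+AGO2 against si5UTR, Rpn9 at 0.33 and Rpn7 at 0.28 in si5UTR+V966M against si5UTR, and Rpt4 at -0.32 and Prosbeta2R2 at 1.16 in si5UTR+V966M against si5UTR+AGO2. With 2 libraries a group, none of these had an edgeR adjusted p under 0.1.

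Dcr-2, which makes the small RNAs that load AGO2, was depleted in experiment 3 to ask whether loss of RNA interference changed transcription. The summed canonical level was 2532 ± 132 CPM in mock (SD, n = 3; range 2383 to 2632) and 2622 ± 224 CPM in Dcr-2 KD (n = 3; range 2437 to 2871), with overlap. In edgeR 0 of 33 members were called, against 2.02% of all genes. Of the members 1 had an unadjusted edgeR p under 0.05, beside 977 of the 7733 genes tested. DESeq2 called 0 of the only 17 members to which it gave an adjusted p. The canonical log2 fold changes ran from -0.30 to 0.41 with a median of 0.03, 17 above and 13 below 0. The smallest p was that of Rpt4, at 65.2, 74.5 and 68.9 CPM in mock and 78.3, 79.5 and 120 CPM in Dcr-2 KD (log2 fold change 0.41 ± 0.16, edgeR adjusted p = 0.280). Its replicate 3 was far above the rest. Next were Prosbeta3 at -0.30, with 48.5, 58.0 and 53.5 CPM in mock and 40.7, 44.5 and 44.6 CPM in Dcr-2 KD, and Prosbeta6 at 0.34.

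Whether the effects of knockdowns from different experiments differed was tested with interaction contrasts over all 23 libraries and 35 members. The effect of LaminB KD was lower than that of Dcr-2 KD for 8 members, all canonical, against 3.8% of all genes lower. All 30 canonical differences were negative, from -0.01 to -0.78, with a median of -0.39. The 8 were Prosalpha2 (-0.66 ± 0.16, edgeR adjusted p = 0.00836), Rpn9 (-0.64), Prosbeta6 (-0.78), Prosbeta2 (-0.66), Rpn7 (-0.56), Prosbeta1 (-0.78), Rpn1 (-0.38) and Rpt4 (-0.51). Prosalpha2 was at 58.8, 61.9 and 65.9 CPM in the mock libraries of experiment 3 and at 77.7, 72.6 and 71.3 CPM in Dcr-2 KD, all higher, the opposite of its order in LaminB KD. Rpt4, which did not pass in either knockdown alone, was among the 8, and leaving out a library ended its call in 6 of 12 fits.

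The count changed when single libraries were left out and with a correction for gene length. Over the 12 fits without a library it ran from 4 to 13. It was 4 without Dcr-2 KD replicate 3, 5 without mock replicate 10 and 13 without LaminB KD replicate 1. The share of all genes in these fits is not given. Gene length moved with the fold change in opposite directions: in Dcr-2 KD against mock the median was 0.07 for genes of 1000 to 2000 bp and -0.09 for those beyond 10000 bp. With a correction for gene length added after seeing the data, edgeR called 0 of the 35 members, 7 of them at an unadjusted p under 0.05 (3.02% of all genes were called lower), and the median over these members was -0.22. Rpn9 was at -0.48 and Prosalpha2 at -0.44 in that fit.

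The effect of AGO2 KD was not called as different from that of Dcr-2 KD for any of 35 members in edgeR, against 3.62% of all genes. In edgeR 1 member had an unadjusted p under 0.05, beside 1220 of the 9416 genes tested. DESeq2 called 0 of the 33 members with an adjusted p. The smallest p were those of Rpt3R at -0.82, Prosbeta6 at -0.43 and Rpn9 at -0.32. Nor was the effect of AGO2 KD called as different from that of si5UTR for any of 35 members in edgeR, against 0.0956% of all genes. In edgeR 0 members had an unadjusted p under 0.05, beside 750 of the 9416 genes tested. DESeq2 called 0 of the 27 members with an adjusted p. The smallest p were those of Rpt3R at -0.79, Prosalpha7 at 0.38 and Rpn10 at 0.35.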

How the data were processed

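The authors trimmed the 50-base single reads with cutadapt 1.10, mapped them to dm6 (FlyBase 6.11) with HISAT2 2.0.4 and assigned them with featureCounts 1.5.0-p3, stranded, to full gene spans. The deposited table holds raw counts, which were used as they are. Gene bodies include introns, the reads carried no molecular identifiers, and genes overlapping on a strand can lose reads. Each experiment was fitted on its own in edgeR 4.0.16 (R 4.3.3) with treatment only, TMM and filterByExpr, which left 8142, 8727 and 7733 genes, of which 33 were members each time. Differences were tested with the quasi-likelihood F test, adjusted by Benjamini-Hochberg over all genes tested, at a threshold of 0.1. The joint fit for interactions held 9416 genes. DESeq2 1.42.0 was an alternative. The SE is the log2 fold change divided by the square root of F. CPM are relative to the TMM library sizes of the experiment and were compared between experiments only as ranks and across mock libraries. The scripts were tested on simulated data.

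Members and lists were chosen with earlier results of these data known. The text names the targeted genes, every member by level, every called member where at most 12 were called and otherwise the 6 largest each way, the 3 smallest unadjusted p where none was called, every copy with a read, and called genes of the pathway list up to 6 per knockdown against mock. Other called members are given by value, chosen after their values were seen. 1 listed gene, TER94, was not matched. Markers summed to 776 to 1270 CPM for Sxl, 28.3 to 74.4 for testis and 1.91 to 20.1 for muscle genes over the libraries. Libraries of a group differed by more than sampling noise in all 19 pairs (chi-square per degree of freedom 6.95 to 28.3).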

Additional observations from a re-analysis of the deposited data

Results flagged for a closer look

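In the 8 mock libraries, which come from 3 experiments, mock replicate 8 of experiment 2 lay apart from the rest for 3 canonical genes. It was at 115 CPM for Prosalpha6, with the next library at 92.0 CPM, at 376 CPM for Rpn2, with the next at 324 CPM, and at 89.3 CPM for Rpn8, with the next at 71.5 CPM. For the copy Prosbeta4R1, mock replicate 10 of experiment 3 was at 2.57 CPM and the next library at 0.543 CPM, which is few reads. Of 36 sets of mock values looked at, 4 had such a library. For independent values of 1 kind, chance would give about 1 in 20 sets, or 1.8. These libraries come from 3 experiments normalised apart and the genes share libraries, so that number cannot be used to judge the count.

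The effects of LaminB KD and Dcr-2 KD, each against its own mock libraries, differed by edgeR's interaction test for 8 genes: Prosbeta6 (-0.78 ± 0.23, edgeR adjusted p = 0.0323), Prosbeta1 (-0.78 ± 0.25, edgeR adjusted p = 0.0495), Prosbeta2 (-0.66 ± 0.20, edgeR adjusted p = 0.0392), Prosalpha2 (-0.66 ± 0.16, edgeR adjusted p = 0.00836), Rpn9 (-0.64 ± 0.18, edgeR adjusted p = 0.0293), Rpn7 (-0.56 ± 0.18, edgeR adjusted p = 0.0461), Rpt4 (-0.51 ± 0.18, edgeR adjusted p = 0.0866) and Rpn1 (-0.38 ± 0.13, edgeR adjusted p = 0.0614). With the correction for gene length none of the 8 was called.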

How the results depend on the processing

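In LaminB KD against mock, 20 members were called, 18 to 25 under DESeq2, RLE size factors, no filter, a threshold of 0.05, only the 2 groups, or the replicate block, 8 with the gene length correction, 4 with gene length and GC, and 12 to 22 without single libraries. Against AGO2 KD the 17 became 11 with gene length, 9 with gene length and GC, and 8 to 22 without single libraries. The 1 member of AGO2 KD against mock became 2 with DESeq2, no filter or only the 2 groups (Prosbeta2R2 added), 0 at 0.05 and with either correction, and 0 to 3 without single libraries. Rpn3 was the 1 member called without a filter in si5UTR+AGO2 against si5UTR (0 to 1 without single libraries), and with DESeq2 or no filter in si5UTR+V966M against si5UTR (0 to 1). In si5UTR+V966M against si5UTR+AGO2 the range was 0 to 1, and Rpt4 was the 1 called in Dcr-2 KD without a filter. The 8 interactions of LaminB KD and Dcr-2 KD became 0 with gene length and 0 with gene length and GC, both added after seeing the data, and 4 to 13 without single libraries. All other counts without single libraries were 0 to 0. The shares of all genes called in the fits without a library are not given beside these counts. No called member changed sign, and the sign of named members that were not called was not followed. The GC correction and the block by lookup numbers were also added after seeing the data. The cause of these changes was not tested.

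As a replicate block, the label's numbers gave 2 members for AGO2 KD against mock, 20 for LaminB KD against mock, 19 for LaminB KD against AGO2 KD, and 1 for si5UTR+V966M against si5UTR, and the lookup table's numbers gave 0 for Dcr-2 KD. Deviations of same-numbered libraries correlated at -0.0449 to 0.0848 in experiment 1, where 7 of 18 were highest with their own number. Between LaminB KD and AGO2 KD they were at 0.0479 to 0.0848, above the other pairs at -0.076 to 0.00493. Same-numbered pairs with mock overlapped with the other pairs for both knockdowns. The values were -0.00455 to 0.0542 in experiment 3. In experiment 2 they were 0.0385, and -0.0385 for other pairs, sizes made equal by having 2 libraries a group. What same-numbered libraries share was not tested. Copies at few reads were limited by depth.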
